A study of Mus musculus with 6 samples.

Results

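In sorted mouse cortical cells, labelled as astrocytes, 44 of 24421 genes had 0 reads in each of 3 libraries of the CNO group and a normalized count of at least 30 in each of 3 libraries of the saline group. A normalized count is a gene's read count divided by the size factor of its library. The rule took 50 genes, 0.569% of the 8780 that met the saline limit, of which 2 numbered predicted genes and C3, Ckap2l, Psmb9 and Ryr3 were left out of the description. Because these values chose the genes, the contrast between CNO and saline is given for them as a description and carries no test. All animals, controls included, were CD51-Flp mice that carried the virus AAV-GFAP-FSF-hM3D-mCherry, given after birth. In that vector, Flp recombination and the GFAP promoter together switch on the red protein mCherry and hM3D, an engineered Gq-coupled receptor whose agonist is clozapine-N-oxide (CNO). Between postnatal days 7 and 21 the mice received either CNO or saline, 2 times per day, and cortical cells with mCherry were sorted on day 21. With no animals given CNO but lacking the receptor, CNO itself and Gq activation cannot be told apart. The labels do not say whether a library came from 1 animal or from a pool, so a p-value here reflects spread among 6 libraries that may be technical. In bulk libraries of sorted cells, fewer cells of a type and less RNA per cell cannot be told apart either.

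These genes form no single pathway, and most are not known as astrocyte genes. One set belongs to immune cells: receptors by which T cells and macrophages sense partner cells, dying cells or microbes. Another set is used by nearly every cell at a low level, such as a subunit of a DNA repair nuclease, a subunit of a general transcription factor and a protein of the mitochondrial ribosome. A last set is known from developing tissue, connective tissue or neurons, such as a pair of Eph receptors, a cadherin and the collagen-crosslinking enzyme lysyl oxidase.

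The starts of these genes differ in CG content, and 5 windows that overlap no annotated exon are shown, from 1 to 21 CG. RefSeq promoter sequences (GRCm38.p6) matched 28 of the 44 genes by symbol. That is 63.6% of them, too few to compare the whole set with other genes, so the counts describe single genes. Each line gives the 250 bases before a start, with every CG dinucleotide in capitals. CG reads the same on both strands, and 91.7% of the windows of 27025 genes held at least 1, with a median of 6. Among the 28 windows the counts ran from 1 to 40, and 3 not shown, of Cep57l1, Pqlc2 and Slc25a40, held more than 21. The window of Dnmt3b, a DNA methyltransferase, held 21 and lies at chr2:153649199-153649448 on the plus strand. That of the Eph receptor gene Epha2 held 9 (chr4:141300971-141301220, plus strand). The windows of 2 phagocyte receptors, Timd4 (chr11:46810549-46810798, plus strand) and Tlr12 (chr4:128618620-128618869, minus strand), held 4 each. That of Kcnrg (chr14:61607207-61607456, plus strand) held 1.
Dnmt3b: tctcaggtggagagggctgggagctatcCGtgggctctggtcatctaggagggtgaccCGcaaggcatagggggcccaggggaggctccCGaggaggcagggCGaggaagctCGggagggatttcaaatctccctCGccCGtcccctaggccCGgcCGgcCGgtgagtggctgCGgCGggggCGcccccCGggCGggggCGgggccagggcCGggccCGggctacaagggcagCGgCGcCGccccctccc
Epha2: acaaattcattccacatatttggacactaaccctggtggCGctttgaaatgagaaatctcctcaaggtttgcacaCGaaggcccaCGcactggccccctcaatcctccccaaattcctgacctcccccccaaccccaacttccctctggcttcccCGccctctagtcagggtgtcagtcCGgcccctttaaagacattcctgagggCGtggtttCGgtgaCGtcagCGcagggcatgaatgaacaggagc
Timd4: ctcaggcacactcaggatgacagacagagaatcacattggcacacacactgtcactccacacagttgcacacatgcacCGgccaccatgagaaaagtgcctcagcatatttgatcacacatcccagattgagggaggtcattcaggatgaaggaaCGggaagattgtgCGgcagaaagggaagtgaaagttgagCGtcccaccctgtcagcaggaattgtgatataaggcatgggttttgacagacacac
Tlr12: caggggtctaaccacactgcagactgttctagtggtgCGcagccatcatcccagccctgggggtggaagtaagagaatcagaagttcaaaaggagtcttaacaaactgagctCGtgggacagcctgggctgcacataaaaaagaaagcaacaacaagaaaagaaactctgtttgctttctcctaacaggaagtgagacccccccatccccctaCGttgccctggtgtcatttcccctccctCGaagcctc
Kcnrg: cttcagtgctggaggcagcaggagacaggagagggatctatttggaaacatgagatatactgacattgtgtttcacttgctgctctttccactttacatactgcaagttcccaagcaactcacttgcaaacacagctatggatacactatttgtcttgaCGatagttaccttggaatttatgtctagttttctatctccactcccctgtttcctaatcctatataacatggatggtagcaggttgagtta

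The libraries differed in depth, and CNO 1 stood apart with 3908076 reads against 12010901 to 19224186 in the other 5. In normalized counts, 1 read equalled 4.23 in CNO 1, 0.740 in CNO 2, 0.970 in CNO 3 and 0.503 to 0.80 in saline. The labelled cell type was present in every library, where all 12 astrocyte markers had reads and their summed level was 169140 to 539463 normalized counts in CNO and 178542 to 268010 in saline. Other cell types were present too. The 10 oligodendrocyte markers summed to 523979 to 748480 in saline and 1837550 to 3478680 in CNO. Mbp made up most of these sums, at 451368 to 604104 in saline and 1585700 to 2963040 in CNO. In limma 2 of the 10 were called higher, while 3 (Mag, Cldn11 and Opalin) had a log2 difference below 0. The 9 microglia markers summed to 85380 to 110870 in saline and 47328 to 141714 in CNO. The part of these cells in the zeros was not tested.

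The depth of the CNO libraries was set against the saline levels. At the lowest of its 3 saline values, each gene would have given 7.15 to 31.3 reads in CNO 1, 40.8 to 178.9 in CNO 2 and 31.1 to 136.4 in CNO 3. A count of 0 allows up to 3 reads, which is 12.7 normalized counts in CNO 1, 2.22 in CNO 2 and 2.91 in CNO 3. Against that floor, averaged over the 3 CNO libraries, the genes were lower in CNO by at least 6.21-fold for Plxna4os1 up to at least 40.6-fold for Wwox. The same values chose the genes, so these bounds describe these libraries only. The bound for Wwox rests on saline 5 and is 16.2-fold without it. Leaving out 1 saline library moved the bound by over 1.5 times for 12 of the 44 genes, and the lowest bound of any gene was then 5.69-fold. Intervals and floors of this kind cover counting error only, and not the choice of the genes.

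Saline levels of the 44 genes were low. Their saline means ran from 36.9 to 240.7 normalized counts with a median of 92.6. Per kilobase of exon the median was 23.4, against 76.6 over all genes with at least 30 in each saline library. Reads per gene and saline library ran from 38 to 1053, with a median of 136. Together the 44 genes held 7871, 5649 and 11020 reads in saline 3, 4 and 5.

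**Figure D1:**
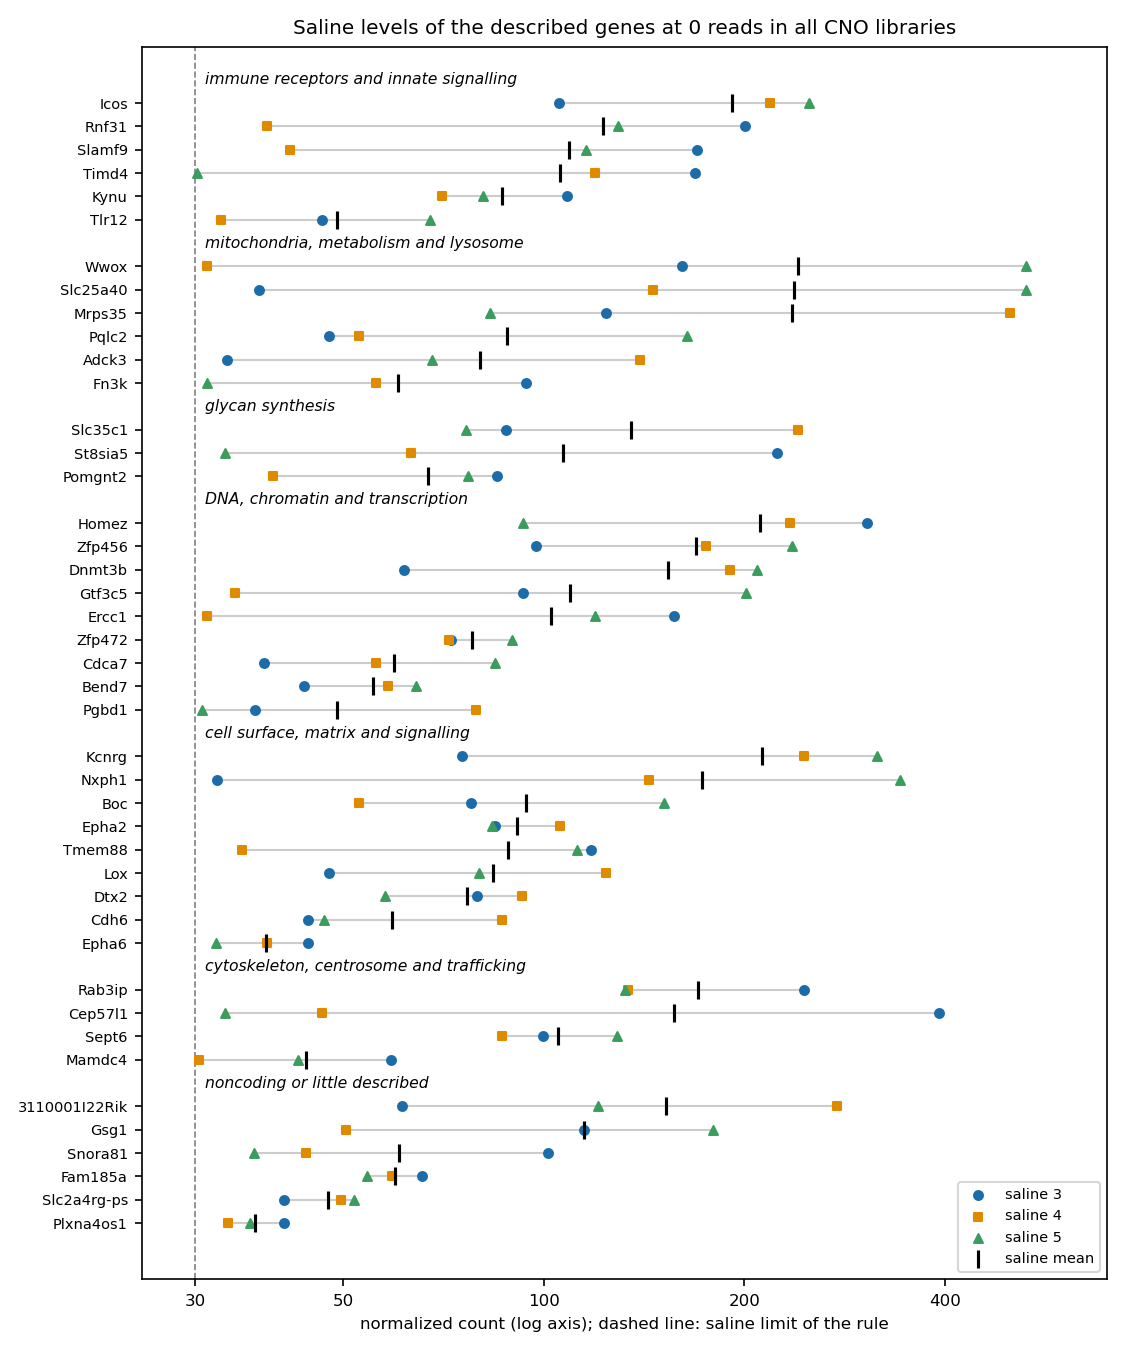
Normalized counts of the genes named here in saline 3, 4 and 5 (circles, squares and triangles, log axis), with the saline mean as a black bar and genes grouped by function. All CNO values are 0 and are not drawn; means run from 36.9 for Plxna4os1 to 240.7 for Wwox, and the 3 saline values of a gene lie up to 17.0-fold apart.

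The immune group held 6 genes, with saline means from 48.9 to 191.4. Icos, the inducible costimulator that activated T cells display, lies on chromosome 1 at 60977927 to 61000320 (GENCODE mouse release 21, GRCm38, protein-coding, as are the next genes unless stated). It had 105.4, 218.5 and 250.1 normalized counts in saline 3, 4 and 5, a mean of 191.4 ± 76.1 (SD, n = 3). Its saline reads stood beside almost no reads of the T cell receptor complex. Cd3e and Cd2 had 0 reads in all 6 libraries, Cd3d and Cd3g had reads only in saline 4 (0.80 and 2.4 normalized counts), and Cd8a only in saline 3 (0.57). Cd247, the zeta chain, had 7.94, 2.4 and 0 in saline 3, 4 and 5 and 0 in CNO. Other genes that T cells use were present in both groups. Cd28, a relative of Icos, had 150.2, 244.9 and 94.1 in saline 3, 4 and 5 and 181.7, 162.0 and 0 in CNO 1, 2 and 3. Cd4, a coreceptor on helper T cells, ran from 413.7 to 807.6 in saline and from 178.5 to 642.3 in CNO. The whole list of 19 T and NK cell markers, 16 of them in the table, summed to 1039 to 1321 in saline and 451.3 to 2447 in CNO, with 12 genes at 0 in all CNO and 6 at 0 in all saline libraries. Cd4 and Il7r made up most of these sums, with Il7r at 222.5 to 655.3 in saline and 114.1 to 1332.0 in CNO. Lck added 935.2 in CNO 3 and was at 0 in CNO 1 and 2. The sums therefore do not stand for the list as a whole.

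Icosl, which encodes the ligand of Icos, was read in every library. It had 814.6, 860.5 and 797.2 normalized counts in saline 3, 4 and 5 and 579.0, 256.0 and 491.9 in CNO 1, 2 and 3. All CNO values lay below all saline values, as did those of 12.5% of the 13028 genes tested. Its log2 difference (CNO minus saline, on log2 of the normalized count plus 1) was -0.98 ± 0.73 (SE), or -0.63 without CNO 2, which did not pass (limma adjusted p = 0.651). Of the 19 costimulation genes, 7 could be tested with a median log2 difference of -0.98, beside -0.89 over all genes tested. None of the 7 was called in limma or in either edgeR fit. Icos is itself 1 of the 7 and the only one lower at an unadjusted p under 0.05 in limma or called lower in DESeq2, which restates how it was chosen. The other 6 had a median of -0.91.

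**Figure D2:**
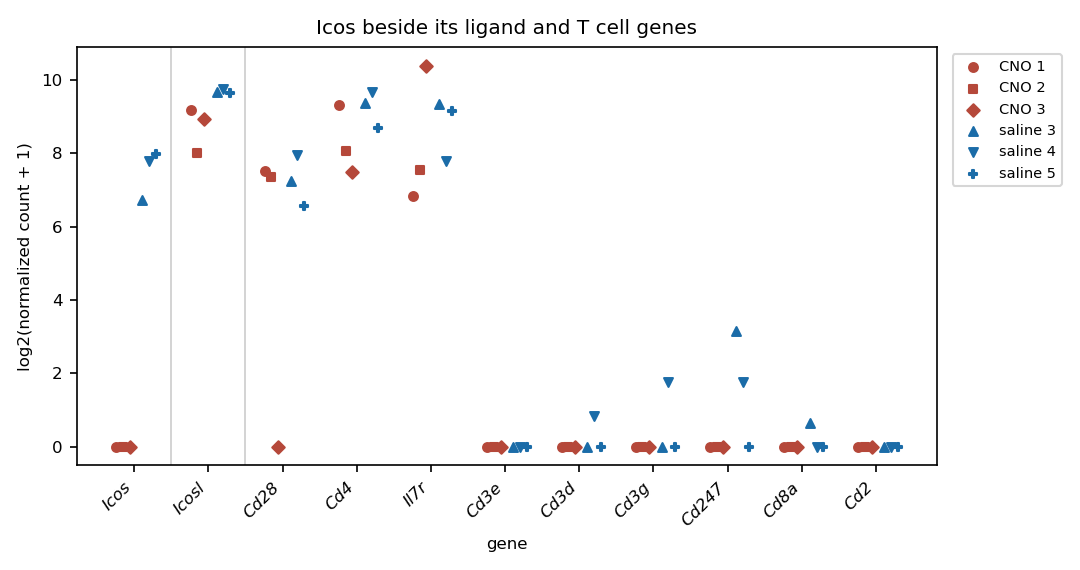
Log2 of the normalized count plus 1 for Icos, its ligand gene Icosl and T cell genes in 3 CNO (red) and 3 saline (blue) libraries. Icos is at 0 in all CNO libraries and at 105.4 to 250.1 normalized counts in saline, where Cd3e and Cd2 are at 0.

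Slamf9, a SLAM family receptor of myeloid cells (chromosome 1, 172475358 to 172478575), had 170.1, 41.6 and 115.8 in saline 3, 4 and 5. Timd4, or TIM-4, a receptor by which macrophages bind phosphatidylserine on dying cells (chromosome 11, 46810800 to 46844332), had 168.4, 119.3 and 30.2. They were lowest in different saline libraries, and their values spread 4.09-fold and 5.58-fold across the 3. All 7 markers of border-associated macrophages had reads in every library and summed to 48666 to 93496 in CNO and 24533 to 37282 in saline, with a median log2 difference of 1.08, or 0.28 with quantile scaling. None of them was called in limma, edgeR or DESeq2. At an unadjusted p under 0.05 in limma 4 of the 7 were higher, beside 2.28% of all genes tested. The part of these cells in the zeros of Slamf9 and Timd4 was not tested.

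Tlr12, an endosomal receptor for microbial profilin, averaged 48.9 ± 17.4 in saline (SD, n = 3). Of the 12 Toll-like receptor genes, 11 had at least 30 in each saline library. Among these, 7 had reads in every CNO library, 3 were at 0 in 1 of them, and Tlr12 was at 0 in all. Kynu, kynureninase of tryptophan breakdown, averaged 86.6 ± 19.5. Rnf31, or HOIP, the catalytic subunit of the complex that builds linear ubiquitin chains (chromosome 14, 55591708 to 55603693), had 200.1, 38.4 and 129.3 in saline 3, 4 and 5. Its 2 partner subunits were read in all 6 libraries. Rbck1 had 56.7, 551.5 and 104.2 in saline and 25.4, 139.1 and 86.3 in CNO, and Sharpin had 412.1, 633.9 and 87.6 in saline and 21.1, 193.9 and 391.0 in CNO. The groups overlapped for both partners.

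Genes of mitochondria, metabolism and the lysosome numbered 6, with saline means from 60.4 to 240.7, and included the widest spread between saline libraries. Wwox, a WW-domain oxidoreductase encoded across a long stretch of chromosome 8 (114439655 to 115352708), had 161.0, 31.2 and 529.9 in saline 3, 4 and 5. Slc25a40, a mitochondrial carrier linked to glutathione import (chromosome 5, 8422850 to 8454797), had 37.4, 145.7 and 528.9. Mrps35, a protein of the small mitochondrial ribosomal subunit (chromosome 6, 147042764 to 147073991), had 124.1, 501.1 and 83.0. For each of the 3 genes a single saline library held most of the summed level, and the SD (258.7, 258.3 and 230.4) was close to the mean. Pqlc2, a lysosomal exporter of basic amino acids, had 47.6, 52.8 and 164.1. Adck3, now called Coq8a, which supports coenzyme Q synthesis, averaged 80.2 ± 54.0, and Fn3k, a kinase that removes sugar adducts from proteins, 60.4 ± 31.7 (SD, n = 3).

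Slc25a39, the closest relative of Slc25a40, had reads in all 6 libraries, at 120.7, 252.1 and 92.1 in saline and 16.9, 64.4 and 102.8 in CNO. Of 26 Slc25a genes with at least 30 in each saline library, 17 had reads in every CNO library, 7 were at 0 in 1, 1 was at 0 in 2 and Slc25a40 was at 0 in all. Of the 16 Mrps genes of that level, 7 had reads in every CNO library, 6 were at 0 in 1, 2 at 0 in 2, and Mrps35 at 0 in all. Among the Mrps partners followed, Mrps2 and Mrps7 had reads in every CNO library, and Mrps5, Mrps9 and Mrps27 were each at 0 in 1. For each of these the groups overlapped, and limma called none. Mrps31, of the same subunit, is given as the only partner that DESeq2 called lower. Mrps31 had 320.9, 204.9 and 112.7 in saline and 0, 11.1 and 0 in CNO 1, 2 and 3. Its log2 difference of -6.42 ± 2.02 (SE), or -4.25 with a pseudocount of 8, did not pass in limma (adjusted p = 0.488), while DESeq2 called it lower (adjusted p = 0.0312). The list of mitochondrial gene expression, with 27 tested genes, had a median log2 difference of -1.76 (-0.40 with quantile scaling), with 0 called in limma and in edgeR on the same genes, 1 higher in edgeR without the filter, and 1 lower and 1 higher in DESeq2. With an unadjusted p under 0.05 in limma, 4 of the 27 were lower, beside 7.25% of all genes tested, and 1 was higher, beside 2.28%. The summed level of the list was 29844 to 51146 in saline and 42600 to 111945 in CNO. A sum follows the genes with the most reads and does not stand for the list, where 12 genes had at least 30 in each saline library. Of the 27 tested, 22 had a log2 difference below 0, beside 68.3% of all genes tested.

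Sugar chain synthesis was represented by 3 genes, 1 transporter and 2 enzymes. Slc35c1, which carries GDP-fucose into the Golgi (chromosome 2, 92452764 to 92460538), had 87.9, 240.9 and 76.5 in saline 3, 4 and 5. St8sia5, a sialyltransferase that builds complex gangliosides of the brain (chromosome 18, 77185839 to 77258771), had 223.9, 63.2 and 33.2. Pomgnt2, which extends O-mannose sugars of dystroglycan (chromosome 9, 121981606 to 121997110), had 85.0, 39.2 and 77.0. Their saline values ranged over 2.17- to 6.74-fold within a gene, with the highest in saline 3 for St8sia5 and Pomgnt2 and in saline 4 for Slc35c1. Upstream of Slc35c1, Gmds, which makes GDP-fucose, had 52.2, 17.6 and 111.2 in saline and 0, 15.5 and 0 in CNO 1, 2 and 3. All CNO values of Gmds lay below all saline values, as did those of 12.5% of the 13028 genes tested. Gmds did not pass (limma adjusted p = 0.543). Downstream, Fut8, a fucosyltransferase, had reads everywhere, from 340.2 to 449.9 in saline and 19.4 to 650.8 in CNO. Dag1, the dystroglycan gene itself, ran from 1620.1 to 3590.7 in saline and 1752.1 to 16781.2 in CNO.

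Genes of DNA, chromatin and transcription numbered 9. Homez, a homeobox protein with leucine zippers (chromosome 14, 54852736 to 54870961), had 305.0, 234.5 and 93.1 in saline 3, 4 and 5. Zfp456, a zinc finger gene (chromosome 13, 67362113 to 67375810), had 97.5, 175.3 and 235.5. Dnmt3b, which sets new DNA methylation and is best known from early development (chromosome 2, 153649450 to 153687730), had 61.8, 190.5 and 208.9. Saline 5 was the highest library for Zfp456 and Dnmt3b and the lowest for Homez. The sister enzymes Dnmt1 and Dnmt3a had reads in every library. Dnmt3a ran from 1477.6 to 2354.1 in saline and from 799.4 to 3900.6 in CNO, and Dnmt1 from 104.2 to 830.0 and from 12.7 to 1722.0, so both groups overlapped.

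Cdca7, which works with the remodeller Hells in keeping DNA methylated in dividing cells, averaged 59.5 ± 23.5 in saline (SD, n = 3). Hells had 55.6, 49.6 and 59.4 in saline and 0, 9.62 and 0 in CNO 1, 2 and 3. All CNO values of Hells lay below all saline values, as did those of 12.5% of the 13028 genes tested. Its log2 difference of -4.66 ± 1.93 (SE), or -2.59 with a pseudocount of 8, did not pass (limma adjusted p = 0.50). The proliferation genes Mki67 and Top2a had reads in both groups, each with a 0 in 1 CNO library. Mki67 had 1354.3, 163.3 and 131.9 in saline and 0, 1012.9 and 901.3 in CNO, and Top2a had 271.5, 68.0 and 244.1 in saline and 1652.4, 54.8 and 0 in CNO. Over the 9 tested genes of the cycling list the median log2 difference was -1.88, beside -0.89 over all genes tested. Of the 9, 7 lay below 0, near the 68.3% of all genes tested, and 0 were called in limma or in either edgeR fit. Ckap2l, which met the rule, and Prc1, also at 0 in all CNO libraries, were the 2 that DESeq2 called lower. They and Mcm3 (-6.46 ± 2.11, SE) were the 3 lower at an unadjusted p under 0.05 in limma, beside 7.25% of all genes tested. The 7 genes with a CNO read had a median of -1.67. Prc1 and Mcm3 were named after their values were seen.

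Ercc1, which cuts damaged DNA together with the nuclease Ercc4 (chromosome 7, 19344778 to 19356524), averaged 102.5 ± 64.6 in saline. Ercc4 had 243.2, 109.7 and 46.8 in saline and 4.23, 171.7 and 2.91 in CNO 1, 2 and 3, which overlap. Among 24 tested genes of DNA repair the median log2 difference was -1.30 (-0.24 with quantile scaling), with 0 called in limma, edgeR and DESeq2. In limma 2 of them, Fancg and Mutyh, both at 0 in all CNO libraries, were lower at an unadjusted p under 0.05, and were named for that. Over all genes tested the share lower at that limit was 7.25%. Without the 3 genes at 0 in all CNO libraries the median was -0.70. Gtf3c5, a subunit of TFIIIC, the factor that recruits RNA polymerase III to transfer RNA genes (chromosome 2, 28566311 to 28583751), had 93.0, 34.4 and 201.3 in saline 3, 4 and 5. The other subunits, Gtf3c1, Gtf3c2, Gtf3c3, Gtf3c4 and Gtf3c6, had reads in all 6 libraries. Gtf3c2, for example, ran from 814.3 to 1430.3 in saline and from 443.9 to 1517.1 in CNO. Zfp472 averaged 78.1 ± 10.0 and Bend7 of the BEN-domain family 55.5 ± 10.7, both with little spread (SD, n = 3). Pgbd1, derived from a piggyBac transposase, had 36.8, 79.2 and 30.7. Of 209 Zfp genes with at least 30 in each saline library, 138 had reads in every CNO library and 2, Zfp456 and Zfp472, were at 0 in all.

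**Figure D3:**
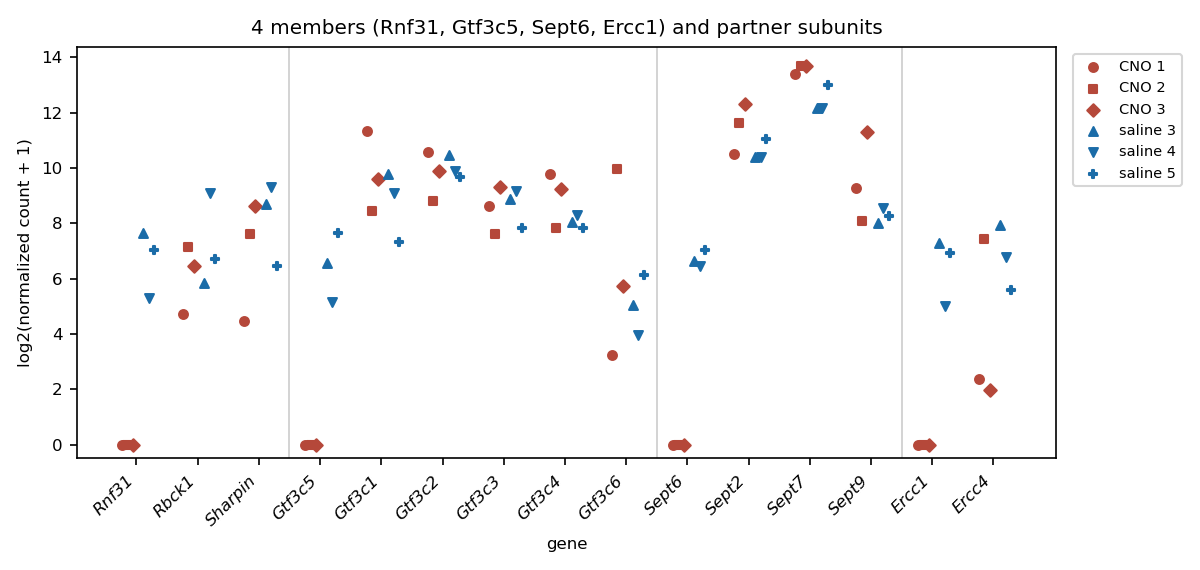
Log2 of the normalized count plus 1 for Rnf31, Gtf3c5, Sept6 and Ercc1 and for their partner subunits in 3 CNO (red) and 3 saline (blue) libraries. The 4 genes are at 0 in all CNO libraries, while Rbck1, Sharpin, 5 other Gtf3c genes, 3 other septins and Ercc4 have reads in every library. Of the partners followed, Otulin and Xpa, each at 0 in CNO 1, and Slx4, with reads in every library, are not drawn.

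Surface, matrix and signalling genes also numbered 9. Kcnrg, a regulator of potassium channel assembly (chromosome 14, 61607457 to 61612826), had 75.4, 245.7 and 316.6 in saline 3, 4 and 5. Nxph1, or neurexophilin 1, a secreted ligand of neurexins known from inhibitory neurons (chromosome 6, 8948431 to 9249032), had 32.3, 144.1 and 342.7. Both were lowest in saline 3 and highest in saline 5. The 10 neuron markers summed to 1995.5, 3326.6 and 4045.8 in saline 3, 4 and 5 and 6630.5, 4400.9 and 2437.0 in CNO 1, 2 and 3. Snap25 (958.0, 1797.8 and 2497.2) and Celf4 (447.3, 890.1 and 1087.1) also rose from saline 3 to 5, while Syt1 and Rbfox3 did not. The part of neurons in the zeros of Nxph1 was not tested. Gad1 and Gad2, markers of inhibitory neurons with low saline counts, did not run in parallel with Nxph1. Gad1 had 24.9, 0.80 and 0 in saline 3, 4 and 5 and Gad2 had 46.5, 92.8 and 2.01, while in CNO 1, 2 and 3 they had 0, 512.0 and 16.5, and 0, 4.44 and 4.85.

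Boc, a Hedgehog coreceptor, had 77.7, 52.8 and 151.5 in saline. Epha2, an Eph receptor tyrosine kinase of epithelia and progenitors (chromosome 4, 141301240 to 141329384), had 84.5, 105.7 and 83.5, one of the narrowest ranges. Its relative Epha6, known from neurons, averaged 38.3 ± 6.0. Of 14 Eph receptor genes, 6 had at least 30 in each saline library, and 2 of these had reads in every CNO library, 2 were at 0 in 1, and Epha2 and Epha6 were at 0 in all. Cdh6, a classical cadherin, averaged 59.2 ± 23.7, and 5 of 7 cadherin genes of that level had reads in every CNO library. Lox, lysyl oxidase, which fibroblasts secrete to crosslink collagen and elastin, averaged 83.9 ± 38.4 in saline. Col1a1, a collagen gene of fibroblasts, had reads in both groups, at 41.4, 202.5 and 80.5 in saline and 8.45, 46.6 and 3206.3 in CNO 1, 2 and 3. Over the fibroblast list, 4 of 7 tested genes lay below 0, beside 68.3% of all genes tested. The median log2 difference was -1.12, with 0 called in limma, in either edgeR fit and in DESeq2. In limma 0 were at an unadjusted p under 0.05. The 8 markers summed to 918.9 to 1748.4 in saline and 1043.8 to 5176.7 in CNO. Most of the highest sum was Col1a1 in CNO 3. Pdgfra, also a marker of oligodendrocyte precursors, added 204.1 to 692.0 in saline and 143.7 to 1683.2 in CNO. Tmem88, an inhibitor of Wnt signalling, averaged 88.5 ± 46.2, and Dtx2, a Deltex ubiquitin ligase of the Notch pathway, 76.7 ± 17.6 (SD, n = 3).

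Cytoskeletal, centrosomal and trafficking genes numbered 5. Rab3ip, or Rabin8, which activates Rab8 at the base of the cilium (chromosome 10, 116905784 to 116950769), had 245.5, 133.7 and 132.4 in saline 3, 4 and 5. Cep57l1, a centrosomal protein (chromosome 10, 41718840 to 41809871), had 391.2, 46.4 and 33.2. Both were highest in saline 3, and the values of Cep57l1 spread 11.8-fold. Rab8a, the target of Rab3ip, had reads in all libraries, from 260.2 to 424.6 in saline and 33.8 to 571.4 in CNO. The cilium and centriole list, with 29 tested genes, had a median log2 difference of -2.18 (-1.02 with quantile scaling). Over all genes tested it was -0.89 (-0.40 with quantile scaling). In the list, 0 were called in limma, edgeR and DESeq2. At an unadjusted p under 0.05 in limma 2 were lower, beside 7.25% of all genes tested. Of its 23 genes with at least 30 in each saline library, 10 were at 0 in at least 1 CNO library and 0 in all. Of all 8780 genes that met this limit, 19.2% were at 0 in 1 CNO library, 3.96% in 2 and 0.569% in all. Among the 3019 of them with a saline mean in the range of the 44 genes, the shares were 37.5%, 10.2% and 1.62%.

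Sept6, a septin of filaments under the membrane (chromosome X, 36911326 to 36991794), had 99.8, 86.4 and 128.8 in saline. Sept2 and Sept7, which assemble with it, had reads everywhere. Sept7 ran from 4576.0 to 8259.8 in saline and 10907.2 to 13217.4 in CNO, without overlap, as for 4.57% of tested genes higher in CNO. Its log2 difference of 1.15 ± 0.36 (SE), or 0.42 with quantile scaling, did not pass (limma adjusted p = 0.488). Mamdc4, or endotubin, an endosomal protein of epithelia, had 59.0, 30.4 and 42.8.

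The last 6 genes are noncoding or little described. Snora81, a small nucleolar RNA of the class that guides pseudouridine formation in ribosomal RNA, lies at chr16:23110756-23110933 on the plus strand within Eif4a2. It is printed because it is the shortest gene of the set. The capitals mark the 3 bases that end 3 bases before its 3′ end, where this class carries its ACA box; the letters there are ATA.
Snora81: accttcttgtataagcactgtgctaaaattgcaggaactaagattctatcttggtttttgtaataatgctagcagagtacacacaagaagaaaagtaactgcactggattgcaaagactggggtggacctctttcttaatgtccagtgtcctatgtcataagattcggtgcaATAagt
It had 101.5, 44.02 and 36.7 in saline 3, 4 and 5. Its host gene Eif4a2 kept reads in all libraries, at 983.6, 1594.4 and 1983.9 in saline and 274.7, 1217.9 and 2209.0 in CNO. Reads of a small RNA inside its host cannot be told apart from host reads. 3110001I22Rik (chromosome 16, 13671929 to 13678388) had 61.2, 275.3 and 120.8. It overlaps Bfar on the same strand, and Bfar had 427.4, 539.5 and 625.1 in saline and 3685.0, 2035.4 and 975.0 in CNO 1, 2 and 3. All CNO values of Bfar lay above all saline values, as did those of 4.57% of the 13028 genes tested. Its log2 difference of 1.89 ± 0.68 (SE) did not pass (limma adjusted p = 0.488). Gsg1, known from germ cells of the testis, had 115.1, 50.4 and 179.2 and Fam185a 65.8, 59.2 and 54.4. The pseudogene Slc2a4rg-ps averaged 47.4 ± 5.8 and Plxna4os1, antisense to Plxna4, 36.9 ± 3.6 (SD, n = 3).

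Overlap with another gene of the table was found for 14 of the 44 genes, and 7 of these 14 overlapping genes had reads in every CNO library. Besides Bfar and Eif4a2 they were Dleu2 at Kcnrg, Irf9 at Rnf31, Naa38 at Tmem88, Cdc42bpa at Adck3 and Plxna4 at Plxna4os1. How reads of overlapping genes were counted, and whether by strand, is not known here, so the reads of such pairs cannot be told apart.

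For 22 of the genes, 76 partners were followed, named for shared complexes, ligands, families or sequential enzymes. Of these, 51 had at least 30 in each saline library, and 35 of the 51 had reads in every CNO library, 13 were at 0 in 1, 3 at 0 in 2 and 0 at 0 in all 3. With 0.569% of all 8780 genes of that level at 0 in all 3, a count of 0 of 51 is near the background. Of 65 tested partners, 0 were called in limma and edgeR and 1 was called lower in DESeq2, while limma had 2 lower and 1 higher with p under 0.05 before adjustment. Their median log2 difference was -1.02, beside -0.89 over all genes tested.

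Read per length, the order of the saline levels changed. Snora81 stood highest at 341.3 ± 199.2 normalized counts per kilobase of exon (SD, n = 3), followed by Kcnrg at 116.5 ± 67.9, 3110001I22Rik at 89.4 ± 64.8, Slamf9 at 83.1 ± 49.1 and Gsg1 at 72.4 ± 40.6. Icos, at 55.8 ± 22.2, ranked 7. Among the genes named here, Cdh6 was lowest at 6.56 ± 2.62, and neighbours in this order differed by no more than the larger of their SDs, apart from the step from Snora81 to Kcnrg.

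Saline levels of the set varied about as much between libraries as those of other genes at this level. The highest saline value was 2.86-fold above the lowest in the median gene and at least 3-fold above it in 21 of 44 (47.7%). Over 3019 genes with at least 30 in each saline library and a mean within the same range, the median was 2.75-fold and the share 44.4%. The range within a gene ran from 1.21-fold for Fam185a and Plxna4os1 to 17.0-fold for Wwox. Saline 5 was the highest library for 18 genes, saline 3 for 17 and saline 4 for 9. Levels of the 44 genes ranked differently in each library, with Spearman correlations of -0.07 between saline 3 and 4, 0.09 between 3 and 5 and 0.23 between 4 and 5. Over the 3019 genes these were 0.14, 0.06 and 0.08, in both cases across genes chosen within a narrow range of level.

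Position and gene structure were counted as features that the rule did not use. The 44 genes lie on 17 chromosomes, with 8 (18.2%) on chromosome 2, where 8.34% of the 3019 genes of the same level lie. Chromosome 2 is named because it held the most of them, so this share was picked from the counts and was not tested. One, Sept6, is on the X chromosome and 0 are on the Y. Protein-coding genes made up 41 of the 44. The median exon length was 4.43 kb against 4.28 kb in the 3019 genes, and the longest transcript had a median GC content of 47.8% against 50.1%.

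Zeros were common in the CNO libraries at this level and rare in the opposite direction. Of the 3019 genes of the same saline level, 39.9% had 0 reads in CNO 1, 4.01% in CNO 2 and 18.9% in CNO 3, and 1.62% in all 3. Of all 8780 genes with at least 30 in each saline library, 6694 had reads in every CNO library, 1688 were at 0 in 1, 348 at 0 in 2 and 50 at 0 in all 3. Conversely, 5244 genes had at least 30 in each CNO library, and 5240 of them had reads in every saline library, 4 were at 0 in 1, and 0 were at 0 in 2 or 3. With the CNO mean held to the range of the 44 genes, 645 genes met that reverse limit and 2 were at 0 in 1 saline library. Only CNO 1 was shallower than every saline library, and the part of depth in these zeros was not tested.

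**Figure D4:**
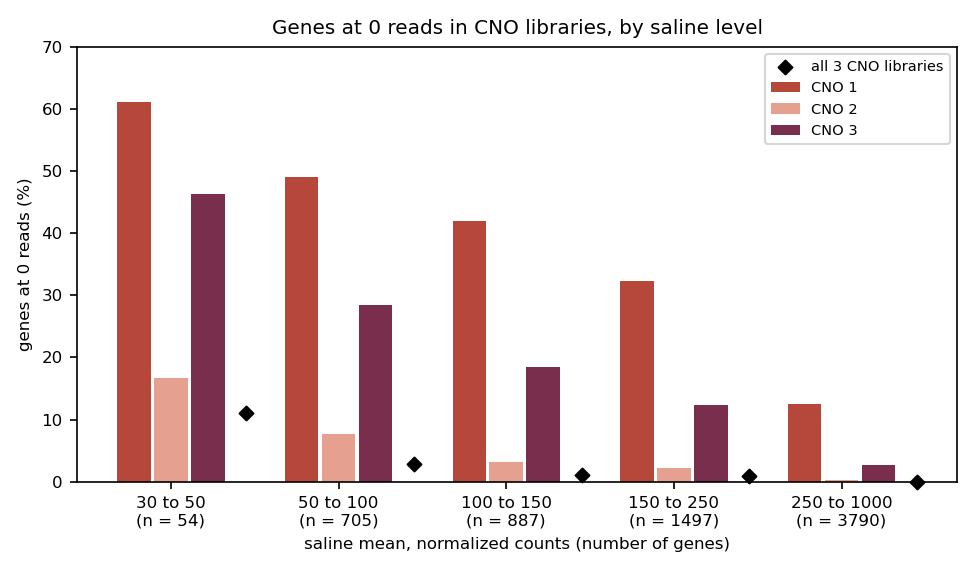
Percent of genes at 0 reads in CNO 1, 2 and 3 (bars) and in all 3 (diamonds), for genes with at least 30 in each saline library, by saline mean. Zeros fall from 61.1% in CNO 1 at means of 30 to 50 to 12.6% at 250 to 1000, and are lowest in CNO 2 in each class.

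The count of genes at 0 turned on CNO 2, the deepest library. Without CNO 1 the rule took 65 genes and without CNO 3 it took 78, but without CNO 2 it took 333. Leaving out saline 3, 4 or 5 gave 86, 87 and 82 genes. Just inside the saline limit lay Timd4, Mamdc4 and Pgbd1, with lowest saline values of 30.2, 30.4 and 30.7. Just outside, also with 0 reads in all CNO libraries, lay Adcy4 at 29.2, Toe1 at 26.7 and Slc22a15 at 26.6. A further 21 genes met the saline limit with 1 read over the CNO libraries, which lay in CNO 2 for 17, in CNO 3 for 3 and in CNO 1 for 1. Examples are Pstk, a kinase of selenocysteine synthesis (518.1 ± 584.0), and Cxcl9, a chemokine (507.9 ± 416.8; SD, n = 3), named after their values were seen.

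In the test over all genes, 0 of the 44 were called lower in limma, which called 0% of 13028 genes lower and 0.0154% higher, while all 44 and 944 genes in all were lower at an unadjusted p under 0.05. edgeR likewise called 0 with the same genes (0%) and 0 of the 44 without the filter (0.0181% of 16565 genes). In the other direction it called 0.0785%. DESeq2 called 32 of the 44 as lower, beside 1.38% of all tested genes lower and 0.53% higher. Over 24 lists of cell types and pathways, with 257 tested genes of which Icos is the only one among the 44, limma called 0 lower and 2 higher (32 and 14 before adjustment). edgeR called 0 on the same genes and 2 lower and 4 higher without the filter, and DESeq2 9 lower and 5 higher. The median log2 difference over all genes moved from -0.89 to -0.40 with quantile scaling and to -1.002 with TMM scaling. It was -0.55 with a pseudocount of 8, -0.45 without CNO 1 and -1.21 without CNO 2. On the same genes it was -0.11 in edgeR and 0.0044 in DESeq2, so the shift of the median depended on the method. Since the rule used this contrast, these counts say nothing further about the genes.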

How the data were processed

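RNA of 6 libraries of sorted mouse cortical astrocytes was sequenced, 3 from animals given CNO and 3 given saline, with 10 ng of total RNA per library per the labels' protocols. Per the submitters' processing notes, the build was mm10 and the tools included STAR 2.5.0a, DESeq2 1.20.0, Trimmomatic 0.4, MultiQC 0.9 and FastQC 0.10.1. Counting software, annotation and strand use were not given in the sources used here. As deposited, the table holds a signal: reads per gene scaled by the authors with a size factor for every library. Dividing by the value of 1 read turned 100% of values into whole reads (tolerance 1e-06), 3908076 to 19224186 per library. Each of the 6 columns carried the name of 1 library, with 0 left over.

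Members were taken by the rule in the text. They and the lists of cell types, pathways and partners were chosen with earlier results of these data known, so no count over them is independent support. The test over all genes was limma 3.58.1, run in R 4.3.3 with a pseudocount of 1 on the log2 scale, a variance trend and 2-sided Benjamini-Hochberg adjustment at 0.05, over 13028 genes with a mean of at least 10. edgeR 4.0.16 (quasi-likelihood) and DESeq2 1.42.0 were run on the recovered reads. The method was tested on simulated data. Values per library are given for the 12 genes with the highest saline mean, the 3 with the lowest saline minimum, those on a fixed list and up to 4 per function group; other members have a mean. Genes were placed with GENCODE mouse release 21 on GRCm38, the assembly of mm10, and all 44 matched. For 1 of the 44 genes and 1 partner, values are not reported here. Floors take 3 reads for a count of 0. Alternatives were other pseudocounts, filters, scalings, tools and limits, and each library left out.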

Additional observations from a re-analysis of the deposited data

How the results depend on the processing

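The number of genes met by the rule moved with each limit. Beside 44, it was 104 at a saline limit of 10, 17 at 50 and 2 at 100, 298 with a saline mean of at least 30, 70 with at most 1 read and 93 with at most 3 reads in each CNO library; at a limit of 20 it was 60 and with predicted genes kept 46. Leaving out 1 library gave 65 to 333 genes. The median saline level of 92.6 normalized counts was 48.8 with quantile scaling and 9.57 in RPM, a different unit; it stayed within the spread between libraries with TMM scaling and without any 1 saline library (82.3 to 97.0). Calls over all genes, 2 in the main test, were 0 under quantile scaling, at a minimum mean of 50 and in edgeR with the same genes, 16 in edgeR without the filter and 249 in DESeq2, and 0 to 0 without any 1 library; the cause was not tested. Of the 5 partner or overlapping genes with a log2 difference in the text, all kept their direction, and only Mrps31 passed in any alternative, DESeq2. Recomputed saline means of single genes moved by more than their SD in 60 cases and not in 204 (38 with RPM, a change of unit, 20 with quantile scaling and 2 with TMM scaling), and list medians moved in 11 and not in 333. No paired analysis was made, because the sample titles only number the libraries within each group and name no pairs. The zeros limit depth statements to counting error, since losses of transcripts before sequencing are not measured.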
